A study of Caenorhabditis elegans with 4 samples.

Results

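Of the 15286 genes in the deposited count table, 89 carry a name that starts with *col-*, the prefix given in *C. elegans* to genes of the collagen family, and these 89 genes are described here. The rule for membership uses the name alone. All 89 are protein coding in the WBcel235 annotation (Ensembl release 115), and they lie on all 6 chromosomes, with 25 on chromosome IV, 18 on II, 15 on V and 11, 11 and 9 on I, X and III. The exons of a gene sum to between 831 bases (*col-132*) and 2960 bases (*col-99*), with a median of 1052. The family is larger than this set, since the gene name table holds 156 *col-* symbols, and the other *col-* genes were not analysed here.

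The cuticle of *C. elegans* is an extracellular skin that is built largely from collagens, small secreted proteins with glycine-rich repeats that wind into triple helices. Epidermal cells make and secrete these collagens, in stage-specific sets, and a fresh cuticle is laid down at each molt. The germ line and the somatic gonad are not known as sites where cuticle is made. A name in *col-* does not guarantee a cuticle protein, however: *col-99* encodes a transmembrane collagen known from nerve cord development.

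RNA was sequenced from dissected adult gonads of wild-type worms (strain N2) and of worms whose histone H3.3 gene *his-72* carries the K27M substitution, with 2 libraries per strain. All worms were grown at 25 °C, and apart from *his-72(uge40[K27M])* no other allele, transgene or treatment is given. The strain label and genotype of the mutant libraries name FAS58 while their titles name another strain, and the genotype was used. A label field on RNA extraction speaks of embryos and larvae at another temperature, whereas the source name and the methods give adult gonads. The methods call the libraries biological replicates, but do not say how many gonads were pooled for each or whether the libraries with equal numbers were collected together.

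The libraries held 28298609 to 32957429 counts in genes, so that 3 counts, used below as the limit that a count of 0 allows, equalled 0.0919 to 0.105 CPM (counts relative to library size, scaled with edgeR's TMM factors). The libraries had a gonad profile: 17 germline markers summed to 25890 and 21846 CPM in wild type and to 20192 and 16002 CPM in the mutant, and none of them passed the test between strains. All other cell type lists were far lower than the germline list. Their sums also differed between libraries of the same strain. The 17 intestine markers summed to 399.5 and 3571 CPM in wild type and to 39.1 and 49.6 CPM in the mutant, and the 12 body wall muscle markers to 1294 and 710.0 CPM in wild type and 793.8 and 1073 CPM in the mutant. Mutant library 1 also had no count for 14.2% of all genes, against 3.66% to 4.80% in the other libraries.

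Transcripts of these *col-* genes were detectable in all 4 gonad libraries, at low levels. Summed over the 89 genes they came to 148.2 and 224.7 CPM in wild type and to 461.6 and 158.1 CPM in the mutant. The sum was thus highest in mutant library 1, and the other mutant library lay inside the wild-type range. The latter rested on *col-38*, the most abundant member: without it the sums were 124.9 and 201.5 CPM in wild type, 402.6 CPM in mutant library 1 and 95.9 CPM in mutant library 2, which was then the lowest. Most members were rare: 52 of the 89 had a mean of 1 CPM or less over the 4 libraries, and 7 exceeded 10 CPM. No member was at or under 3 counts in all libraries. The share of members at 0 counts was 2.25% and 4.49% in wild type, 16.9% in mutant library 1 and 5.62% in mutant library 2, close to the shares over all genes given above for the same libraries. In dissected tissue, fewer cells of a type and less RNA per cell cannot be told apart.

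Among the 89 members, *col-38* was the most abundant transcript in every library. It lies on chromosome II (8568035 to 8569088, minus strand) and had wild-type counts of 683 and 666 against mutant counts of 1924 and 1976, or 23.3 ± 0.0691 CPM and 60.6 ± 2.33 CPM (mean ± SD, n = 2). Scaled to exon length as well as depth (RPKM), *col-38* was at 25.2 and 25.1 in wild type and at 63.6 and 67.2 in the mutant, and it ranked highest of the members on this scale as well. The mutant libraries did not overlap the wild-type libraries. The log2 fold change was 1.38 ± 0.18 (SE), with an adjusted p of 0.0114 in edgeR's quasi-likelihood test, adjusted by the Benjamini-Hochberg method over the 15261 genes with at least 1 count.

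Besides *col-38*, 4 collagens passed both thresholds in the upward direction (a change of more than 2-fold with an adjusted p below 0.05), so that 5 of 89 rose (5.62%). Over all tested genes 4.43% rose, so the members' share lay near this background. *col-8* (chromosome III, 7019583 to 7020600) had wild-type counts of 38 and 33 and mutant counts of 348 and 412. Its log2 fold change of 3.27 ± 0.36 had an adjusted p of 0.00716, the lowest among the members. *col-113* (chromosome IV, 7150663 to 7152509) was nearly without counts in wild type, with 2 and 1, and had 58 and 92 in the mutant. The ratio of the summed counts was 45.02 (95% exact interval 15.1 to 220.7, counting error only), and the fitted log2 fold change was 5.39 ± 0.99 with an adjusted p of 0.0232. The genes *col-14* and *col-158* were called close to the threshold. *col-14* (chromosome IV, 7753408 to 7754656) went from wild-type counts of 13 and 11 to mutant counts of 208 and 93, a log2 fold change of 3.48 ± 0.72 with an adjusted p of 0.0455. *col-158* (chromosome V, 11829582 to 11831219) went from 49 and 28 to 166 and 244 counts, a log2 fold change of 2.26 ± 0.47 with an adjusted p of 0.0478.

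In the downward direction 2 of 89 members were called (2.25%), against 1.46% of all tested genes. *col-135* (chromosome IV, 15129655 to 15131797) fell from wild-type counts of 196 and 147 to mutant counts of 14 and 10, a log2 fold change of -3.97 ± 0.54 with an adjusted p of 0.0133. *col-71* (chromosome II, 3500077 to 3502570) fell from 13.7 and 10.1 CPM to 4.41 and 3.05 CPM, a log2 fold change of -1.67 ± 0.33 with an adjusted p of 0.0418. For all 7 called genes both mutant libraries lay on the same side of both wild-type libraries, and the mutant libraries differed from each other by at most 2.18-fold (*col-14*). A call with 2 libraries per strain favours both properties. Of the 7, *col-8*, *col-14*, *col-71*, *col-113* and *col-158* overlap an annotated gene on the opposite strand. The library kit was stranded, but whether the counting used strand is not given in the sources used here.

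**Figure D1:**
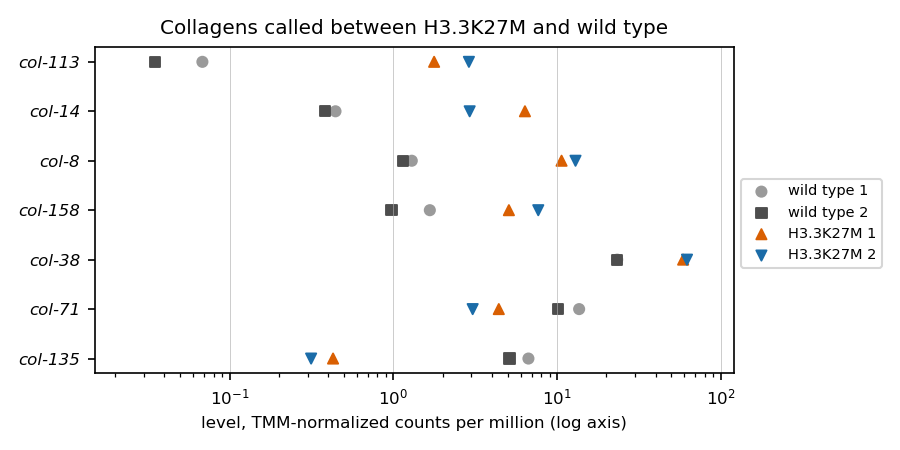
Levels of the 7 collagens called between strains, in TMM-normalized CPM on a log axis, with 1 symbol per library. For *col-38*, the most abundant, the mutant libraries sit at 58.9 and 62.2 CPM and the wild-type libraries at 23.3 and 23.2 CPM. For each of the 7 genes the strains do not overlap, which a call favours.

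These calls rest on 2 libraries per strain. When any library was left out in turn, 0 of the 7 collagens passed, although their fold changes kept their direction. The log2 fold change of *col-38* lay between 1.34 and 1.47, of *col-8* between 3.12 and 3.45, of *col-71* between -1.91 and -1.41 and of *col-135* between -4.16 and -3.73. The ranges were wider for *col-113* (4.99 to 5.94), *col-158* (1.93 to 2.74) and *col-14*, which was at 2.86 without mutant library 1 and at 3.93 without mutant library 2. In the fit with a replicate block (libraries with the same number treated as pairs), 3 members stayed higher and none stayed lower. *col-8*, *col-38* and *col-113* passed in 6 of the 6 alternatives that were followed gene by gene with all 4 libraries (the crossed pairing was not), and *col-158* in 2 of them.

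Before adjustment, 12 members were higher and 6 lower at a p under 0.05, where 12.3% of all tested genes were higher and 12.4% lower. *col-114* had wild-type counts of 0 and 0 and mutant counts of 30 and 13, at least 6.42-fold higher when each wild-type library is set to 3 counts, but its adjusted p in edgeR's quasi-likelihood test was 0.138. DESeq2 and edgeR's classic exact test called it, with adjusted p of 0.0263 and 0.0127. *col-58* had wild-type counts of 1 and 3 and mutant counts of 21 and 15, with an adjusted p of 0.140. In the other direction, *col-39* had wild-type counts of 26 and 20 and mutant counts of 0 and 3. The ratio of its summed counts, wild type over mutant, was 17.03 (95% exact interval 5.48 to 85.6), and its adjusted p was 0.118. *col-79*, which lies next to *col-39*, had wild-type counts of 20 and 36 and mutant counts of 0 and 7, with an adjusted p of 0.167.

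Over all members the median log2 fold change was 0.51, compared with -0.11 over all tested genes, and 57 members lay above 0 and 32 below. The 57 include 23 members, 18 of them autosomal, that were over 4-fold higher in mutant library 1 than in mutant library 2. The medians over all and over autosomal members therefore rest in part on 1 library. The spread was wider than over all tested genes, with a median absolute log2 fold change of 1.21 against 0.72. This comparison was not matched for level, and 52 of the 89 members had a mean of 1 CPM or less. The 11 members on the X chromosome had a median of -1.06, equal to that of all X-linked genes (-1.06). The 5 X-linked members above 0 were all over 4-fold higher in mutant library 1 than in mutant library 2, so this median depends on single libraries. The 78 autosomal members had a median of 0.57 against -0.05 for all autosomal genes. None of the 11 X-linked members was called, which lies near the shares over all tested genes (4.43% higher and 1.46% lower).

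The larger differences among the collagens lay between the mutant libraries. With at least 10 counts in these libraries together, 76 members could be compared, and counts of 0 were set to 3. Of these, 23 were more than 4-fold higher in mutant library 1 than in mutant library 2, or 30.3%, whereas 1.32% of all genes (168 of 12775) were. A further 9 were more than 4-fold higher in mutant library 2 (11.8%, against 11.9% of all genes), and 44 lay within 4-fold (57.9% against 86.8%). The members' median absolute log2 ratio was 1.74, and that of all genes 0.45. The 4-fold limit fell between *col-48* (12 and 3 counts, 3.89-fold) and *col-109* (20 and 4 counts, 4.86-fold). With a minimum of 50 counts, 21 of 43 members and 58 of 9720 genes in all were over 4-fold higher in mutant library 1. Members of 1 family share sequence, and how reads matching several collagens were handled is not given in the sources used here, so the members are not independent of each other. Each ratio compares 1 library with 1 other, and no test between them was run.

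The 23 collagens that were high in mutant library 1 include 8 of the 10 most abundant members. *col-140* had 272 and 586 counts in the wild-type libraries, 1667 in mutant library 1 and 28 in mutant library 2. *col-124* had 267 and 440 counts in the wild-type libraries, 1510 in mutant library 1 and 13 in mutant library 2, the largest ratio among the members at 113.0-fold (95% exact interval 65.9 to 212.7, counting error only). *col-80* had 137 and 305 counts in the wild-type libraries, 1020 in mutant library 1 and 25 in mutant library 2. In all 3 genes the wild-type libraries lay between the mutant libraries, so the strains overlapped.

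*col-19*, an adult-specific cuticle collagen of the main epidermal syncytium that is widely used as a marker of the adult stage, followed the same order. Its counts were 26 and 32 in the wild-type libraries, 205 in mutant library 1 and 0 in mutant library 2, so that it was at least 66.5-fold higher in mutant library 1 when the 0 is set to 3 counts. *col-93* had 70 and 229 counts in the wild-type libraries, 549 in mutant library 1 and 6 in mutant library 2, a ratio of 88.99. *col-160* had 25 and 90 counts in the wild-type libraries, 185 in mutant library 1 and 2 in mutant library 2, a ratio of 89.96 (95% exact interval 24.6 to 748.4). *col-179* had 38 and 71 counts in the wild-type libraries, 133 in mutant library 1 and 2 in mutant library 2, a ratio of 64.7 (17.6 to 539.6). *col-160* overlaps *col-159* on the same strand of chromosome V, and *col-159* is also among the 23, with 7, 18, 34 and 0 counts, so their reads may not be separable.

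The same order of libraries returned in nearly every one of the 23. The genes *col-119*, *col-184*, *col-20* and *col-143* had 97 to 136 counts in wild-type library 1 and 229 to 421 in wild-type library 2. They had 610 to 794 counts in mutant library 1 and 19 to 30 in mutant library 2. Mutant library 2 was the lowest and mutant library 1 the highest of the 4 libraries in 21 of the 23. The choice of the genes favours this order, which held in 52 of the 145 other genes chosen in the same way (35.9%). Wild-type library 2 exceeded wild-type library 1 in 21 of the 22 genes with at least 10 wild-type counts, by a median of 2.55-fold, whereas it did so in 54.04% of all genes. In sum, the 23 genes came to 59.3 and 152.5 CPM in wild type, to 330.0 CPM in mutant library 1 and to 10.8 CPM in mutant library 2.

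**Figure D2:**
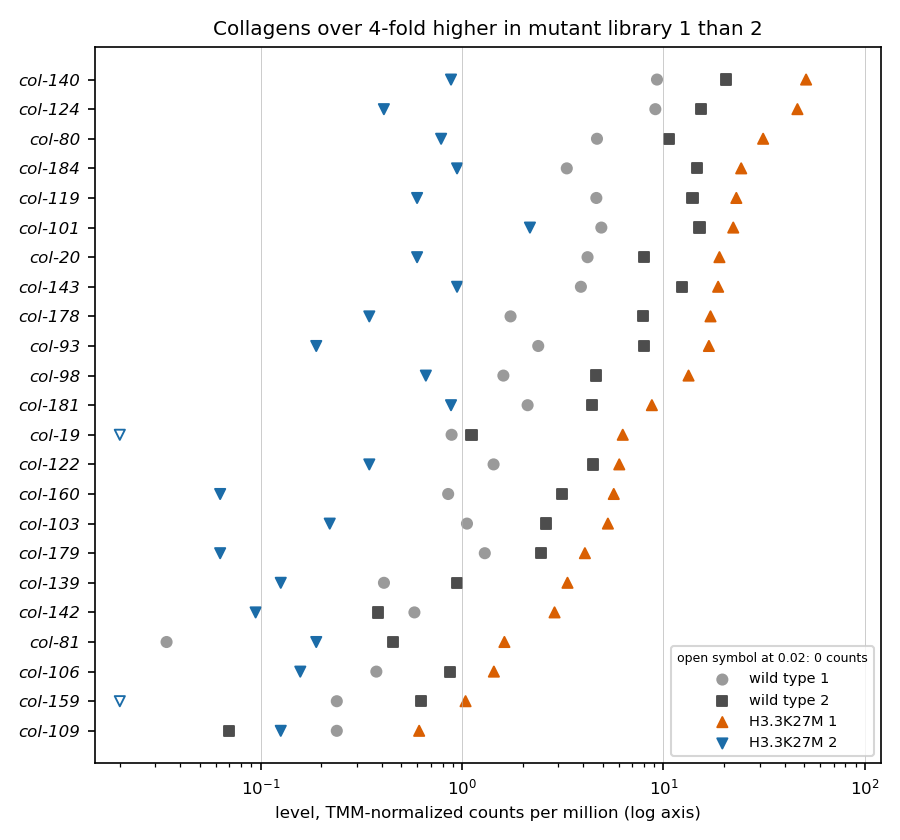
Level of each of the 23 collagens that were over 4-fold higher in mutant library 1 than in mutant library 2, in TMM-normalized CPM on a log axis, with 1 symbol per library and open symbols for 0 counts. The order is mutant 2, wild type 1, wild type 2, mutant 1 in 20 of the 23, from *col-140* with 51.1 CPM in mutant library 1 down to *col-109* with 0.613 CPM.

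None of these 23 genes was called between strains, and calls were few among all genes chosen in this way (5 of 168). Their log2 fold changes ran from 0.13 (*col-122*) to 1.90 (*col-81*), and their adjusted p from 0.407 to 0.9498 in edgeR's quasi-likelihood test. Leaving out mutant library 1 turned the direction of the 12 that the naming rule selects, *col-19*, *col-20*, *col-80*, *col-93*, *col-101*, *col-119*, *col-124*, *col-140*, *col-143*, *col-160*, *col-179* and *col-184*. The choice of the 23 by their excess in mutant library 1 favours this reversal. *col-140*, for example, had a log2 fold change of 0.81 ± 1.23 with all libraries, and between -4.01 without mutant library 1 and 1.78 without mutant library 2. For *col-19* the mean level was 1.00 ± 0.161 CPM in the wild-type and 3.14 ± 4.44 CPM in the mutant libraries (SD, n = 2), with an adjusted p of 0.485. In contrast, the 44 members within 4-fold between the mutant libraries summed to 79.3 and 62.9 CPM in wild type and to 131.0 and 139.4 CPM in the mutant. Of these sums, *col-38* gave 23.3 and 23.2 CPM in wild type and 58.9 and 62.2 CPM in the mutant. The median over the 44 was 0.529 and 0.488 CPM in wild type and 0.689 and 0.661 CPM in the mutant. The 44 include all 7 called collagens, which the split by itself makes likely. A gene that differs widely between the mutant libraries can hardly pass with 2 libraries per strain. Of all genes within 4-fold, 7.86% were called in either direction. In this group wild-type library 2 exceeded library 1 in 11 of 36 genes. As the group was formed from the mutant libraries, the agreement between these libraries is a property of its choice, and the wild-type values are not.

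**Figure D3:**
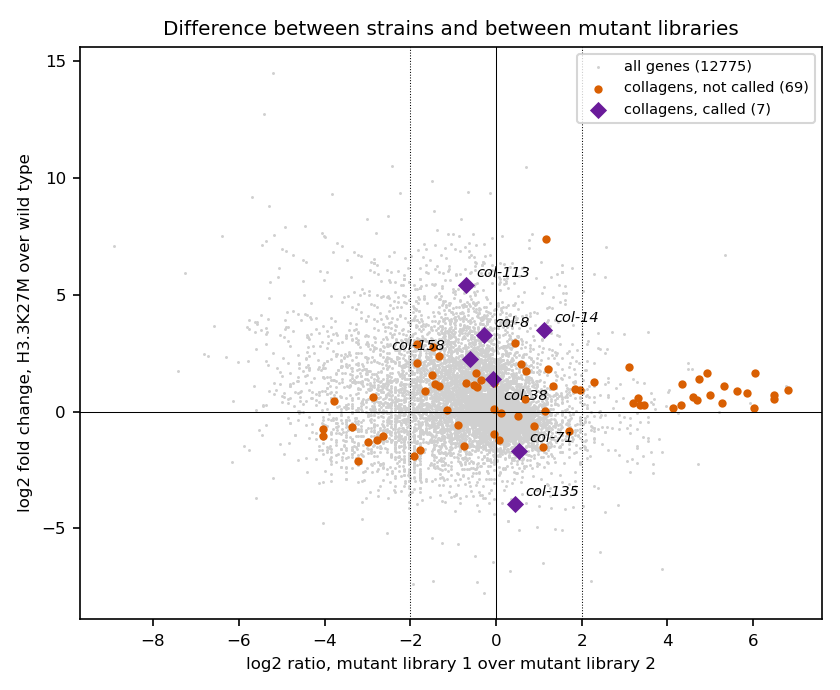
Log2 fold change between strains (vertical) against the log2 ratio of mutant library 1 to mutant library 2 (horizontal), for 12775 genes with at least 10 counts in the mutant libraries. Dotted lines mark 4-fold, and 23 collagens lie to the right of them at log2 fold changes of 0.13 to 1.90, whereas the 7 called collagens lie between them.

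Across members, those with a higher value in mutant library 1 tended to be higher in wild-type library 2. The log2 ratio of mutant library 1 to 2 and that of wild-type library 1 to 2 had a Pearson's r of -0.47 and a Spearman's rho of -0.44 over the 67 members with enough counts in both pairs. Over all 11670 such genes the values were 0.0066 and -0.066. These describe genes within 4 libraries, which share depth and scaling, and genes are not independent replicates.

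Other genes were also in excess in mutant library 1. Of the 168 genes over 4-fold higher in mutant library 1, 13.7% were members. Among the 145 others, wild-type library 2 exceeded library 1 in 57 of 118, without the order of the wild-type libraries seen in the collagens. With an 8-fold difference and more than 100 counts in mutant library 1, 22 genes remained, of which 18 were *col-* genes. The other 4 were K08D12.6, Y105C5B.20, Y37A1A.2 and *sri-40*. Among them, K08D12.6 (12, 83, 223 and 2 counts in wild type 1, wild type 2, mutant 1 and mutant 2) and Y105C5B.20 (90, 146, 267 and 20) kept the collagens' order of libraries.

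The 9 members that were over 4-fold higher in mutant library 2 had few counts, at most 53 in that library, and 3 of them had none in mutant library 1. *col-115* had 8 and 30 counts in the wild-type libraries, 4 in mutant library 1 and 53 in mutant library 2. *col-63* had 14 and 19 counts in the wild-type libraries, 7 in mutant library 1 and 50 in mutant library 2. *col-9* and *col-153* had 0 counts in mutant library 1, and had 20 and 23 in mutant library 2, with 19 to 23 and 7 to 44 in wild type. Summed CPM over the 9 were 5.77 and 4.98 in wild type, 0.459 in mutant library 1 and 6.77 in mutant library 2. As a sum they were thus low in mutant library 1 more than high in mutant library 2, and their choice favours a low value in mutant library 1. Single members differed: *col-115* and *col-63* were highest in mutant library 2, at 1.67 and 1.57 CPM, whereas *col-9* and *col-153* were not. *col-50*, at 8 and 24 counts in wild type, 33 in mutant library 1 and 115 in mutant library 2, fell just inside the limit at 3.58-fold.

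Genes known for a stage or site were split between these patterns. *col-2*, a collagen of the dauer larva, a resistant resting stage, had wild-type counts of 31 and 25 and mutant counts of 156 and 65, with a log2 fold change of 1.82 ± 0.65 and an adjusted p of 0.160. *col-12*, which is made in each molting cycle, was near the floor, with mean levels of 0.292 CPM (wild type) and 0.685 CPM (mutant). *col-120* had 27 and 13 counts in the wild-type libraries, 1 in mutant library 1 and 9 in mutant library 2. *col-99*, the transmembrane collagen, had 8 and 24 counts in the wild-type libraries, 1 in mutant library 1 and 16 in mutant library 2. It overlaps annotated genes on both strands.

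Neighbouring collagens did not always share the pattern. Genes were called neighbours with at most 2000 bases between them, which gave 6 groups with 13 members. On chromosome II, *col-79*, *col-39* and *col-80* lie on the same strand within 4675 bases, and only *col-80* was high in mutant library 1 (1020 counts), where *col-79* and *col-39* had 0. On chromosome V, *col-141* and *col-142* lie within 2553 bases. *col-141* had 25 and 13 counts in wild type and 0 in mutant library 1, while *col-142* had 17 and 11 in wild type and 94 in mutant library 1. In contrast, *col-178* and *col-179*, within 3031 bases on the X chromosome, both followed the order of the 23, with 559 and 133 counts in mutant library 1 and 11 and 2 in mutant library 2.

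Other cuticle collagens, named for their body shape mutants, did not share the excess in mutant library 1. Of the 17 *dpy*, *sqt*, *rol*, *lon*, *bli* and *ram* collagens measured, 14 had enough counts to be compared. Among these 14, 0 were over 4-fold higher in mutant library 1, near the 1.32% of all genes. A further 6 were over 4-fold higher in mutant library 2, as were 11.9% of all genes. They summed to 35.5 and 30.4 CPM in wild type and to 17.2 and 60.1 CPM in the mutant. *sqt-3*, a collagen required for normal body shape, had 9 and 12 counts in the wild-type libraries, 20 in mutant library 1 and 186 in mutant library 2. *dpy-14* had 71 and 29 counts in the wild-type libraries, 39 in mutant library 1 and 346 in mutant library 2. None of the 17 was called between strains.

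Markers of the epidermis other than collagens did not, in sum, follow the collagens. The 20 measured genes summed to 410.3 and 343.1 CPM in wild type and to 604.7 and 634.9 CPM in the mutant, where the 23 collagens were at 330.0 and 10.8 CPM. Most of this sum came from *lin-26*, *mup-4*, *nhr-23* and *vab-10*, so it describes these 4 genes more than the list. *lin-26* was at 122.7 and 115 CPM in wild type and at 134.5 and 115.5 CPM in the mutant. *mup-4* was at 4.98 and 6.31 CPM in wild type and at 108 and 192.6 CPM in the mutant. Whether the 4 genes are expressed in epidermis alone was not tested. The other 16 summed to 50.5 and 42.5 CPM in wild type and to 46.5 and 76.1 CPM in the mutant, so that mutant library 1 was not the highest. Most of this smaller sum again came from few genes. In mutant libraries 1 and 2, *mua-3* was at 15.3 and 25.4 CPM, *ajm-1* at 5.57 and 8.79 CPM and *che-14* at 17.7 and 27.1 CPM. Single markers differed between the mutant libraries. Of 17 with enough counts, 2 were over 4-fold higher in mutant library 1, as were 1.32% of all genes. In mutant library 2, 4 of the 17 were over 4-fold higher, as were 11.9% of all genes. The hedgehog-related genes *grd-3* (10, 46, 59 and 0 counts in wild type 1, wild type 2, mutant 1 and mutant 2) and *grd-5* (4, 21, 40 and 0) had the collagens' order. *qua-1*, of the same family, ran the other way with 5, 9, 4 and 174 counts. *wrt-2* (10, 5, 0 and 2 counts) and *wrt-6* (8, 25, 0 and 5) had too few counts in the mutant libraries to be compared. The intestine sum, given above, was higher in wild-type library 2 than in library 1, as most of the 23 collagens were. It was low in both mutant libraries, where the collagens were far apart. Its largest part was the yolk gene *vit-6*, at 118.5 and 1194 CPM in wild type and 2.33 and 6.39 CPM in the mutant. Of the 17 intestine markers 7 were called lower, against 1.46% of all tested genes, so this sum also carries a difference between strains. Whether tissue other than gonad contributed to the collagen counts was not tested.

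**Figure D4:**
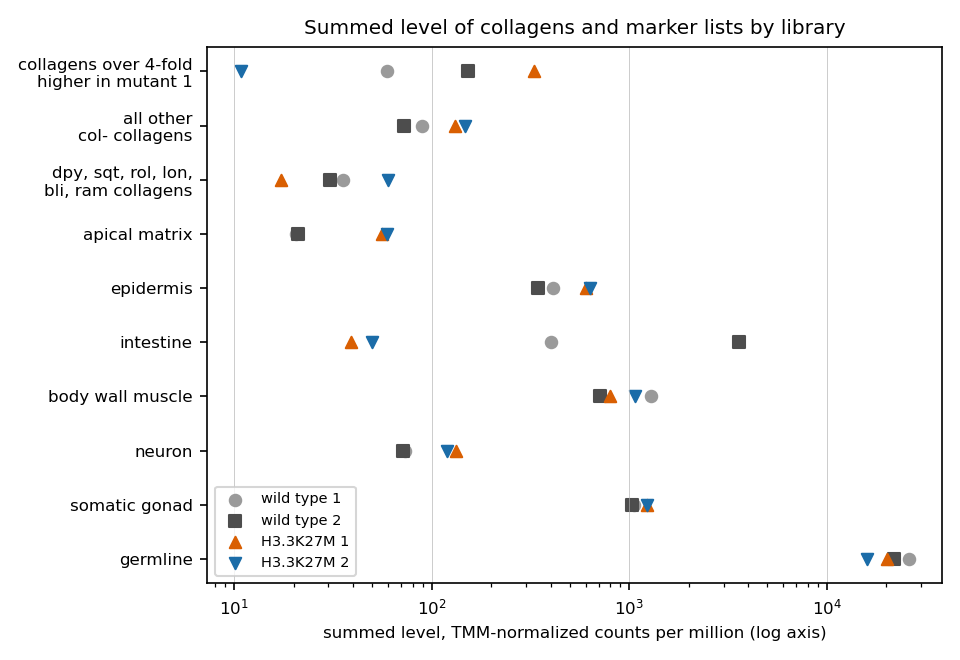
Summed level of the collagens and of marker lists, in TMM-normalized CPM on a log axis, with 1 symbol per library. The 23 collagens span 10.8 to 330.0 CPM with the mutant libraries at the ends. The epidermis markers lie between 343.1 and 634.9 CPM, mostly from 4 genes, and the somatic gonad markers between 1036 and 1233 CPM.

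Of the genes that act on collagens, 10 enzymes and chaperones of collagen folding, trimming and cross-linking were measured, and 2 rose and 1 fell. *dpy-31*, a metalloprotease that trims procollagen, rose from wild-type counts of 167 and 130 to mutant counts of 1024 and 1001, a log2 fold change of 2.62 ± 0.24 with an adjusted p of 0.00391. *bli-3*, the dual oxidase that cross-links cuticle collagens, rose from 88 and 85 to 414 and 361 counts (2.01 ± 0.29, adjusted p = 0.0162). *pdi-2*, a protein disulfide isomerase that also serves the prolyl hydroxylase of collagen, fell from 55043 and 44424 to 16863 and 17184 counts (-1.70 ± 0.21, adjusted p = 0.0106). In these 3 genes the mutant libraries lay close together.

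Among 12 cuticulins and other proteins of the apical matrix, 2 rose and none fell. They were the cuticulin *cut-1* (wild-type counts of 1 and 7, mutant counts of 230 and 336, adjusted p = 0.00512) and the lipocalin-related *lpr-1* (49 and 25, then 506 and 473, adjusted p = 0.00577). Of the 20 epidermis markers 2 rose and 1 fell: *mup-4*, part of the attachments between epidermis and cuticle, and *che-14*, which acts in apical secretion, were higher, and the junction gene *ajm-1* was lower. Of 12 regulators of molting and cuticle timing only *bed-3*, a zinc finger factor of the molting cycle, was called, with wild-type counts of 103 and 108 and mutant counts of 335 and 343 (adjusted p = 0.0343). Of the 3 basement membrane collagens, which form sheets under cells including those of the gonad and are not cuticle proteins, *cle-1* rose from 1020 and 699 to 3514 and 3237 counts (1.82 ± 0.22, adjusted p = 0.0101). All these adjusted p come from edgeR's quasi-likelihood test over all tested genes, against the same backgrounds of 4.43% higher and 1.46% lower.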

How the data were processed

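The authors isolated RNA from dissected gonads, prepared libraries with a stranded mRNA kit and read 50 bases. Per the submitters' processing notes, TopHat2 2.0.13, HTSeq 0.6.1, edgeR 3.10.5 and build WBcel235 were used. The deposited counts are whole numbers of reads per gene for each library, without normalization. The same table holds the authors' normalized counts (a signal per gene scaled to the library), the authors' log2 fold change and mean log2 CPM, and the authors' p-values, raw and adjusted. These other columns were not used.

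The 89 members and the 11 gene lists were chosen with earlier results of these data known. Counts of all 15261 genes with at least 1 count were scaled with TMM and tested by glmQLFit and glmQLFTest of edgeR 4.0.16 (R 4.3.3) in a model of strain alone. As in the study's methods, a call needed a change of more than 2-fold and an adjusted p below 0.05 (Benjamini-Hochberg). Standard errors are the absolute log2 fold change over the square root of F. No exact permutation test can be useful here, since 2 against 2 libraries cannot go below p = 0.333 (two-sided). Precision is limited by the spread between 2 libraries, except near 3 counts, where intervals (exact binomial) and bounds cover counting error only.

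Positions, exon lengths and overlaps came from Ensembl release 115 of WBcel235, and RPKM uses exon length. The symbols of 88 members are the same in the gene name table, and *col-70* has another name there.

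Named members were those called, the 10 most abundant, the 5 largest rises and falls and the 5 highest and lowest ratios between mutant libraries at a mean of at least 10 counts, and genes known for a stage or site. *col-48*, *col-81*, *col-109*, *col-122*, *col-142*, *col-159* and *col-178*, the uncalled genes of the other lists and the 4 other genes high in mutant library 1 fall outside this rule and were named after their values were seen. Alternatives were RLE normalization, DESeq2 1.42.0, filterByExpr, the classic exact test, a replicate block, no fold threshold, leaving out each library and, chosen after seeing the data, edgeR's legacy method, a crossed pairing and the minimum of 50 counts for the number of members over 4-fold apart.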

Additional observations from a re-analysis of the deposited data

How the results depend on the processing

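The 5 collagens called higher became 3 with RLE normalization and 3 with a replicate block, and were 4 to 7 in the other fits of 4 libraries (7 with DESeq2). The 2 called lower became 1 with RLE, 0 with the replicate block and 1 with the crossed pairing. Over all genes, the 676 higher became 1228 with DESeq2, 1046 with the classic exact test and 372 with the replicate block, and the 223 lower became 522, 472 and 91. Leaving out each library gave 0 to 0 collagens higher, 0 to 0 lower, 0 to 101 genes higher and 0 to 17 lower. A lone library was then assumed to vary like the other strain. The median log2 ratio between mutant libraries, 0.48, became 1.34 with a minimum of 50 counts and 0.30 with library size alone. With the replicate block the log2 fold change reversed for *col-20* (-0.11), *col-93* (-0.056), *col-101* (-0.14), *col-119* (-0.42), *col-124* (-0.41), *col-140* (-0.40), *col-143* (-0.29), *col-179* (-0.23) and *col-184* (-0.12), none of them called. The causes were not tested.

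Without 1 library, log2 fold changes that reversed ranged from -7.89 to 2.64 for *col-19* (mutant 2 at 0 counts, so the low end is no bound), -3.28 to 1.64 for *col-20*, -1.39 to 1.51 for *col-63*, -3.22 to 2.03 for *col-80*, -4.69 to 1.83 for *col-93*, -2.14 to 1.31 for *col-101*, -2.38 to 1.69 for *col-115*, -3.89 to 1.35 for *col-119*, -4.83 to 1.92 for *col-124*, -4.01 to 1.78 for *col-140*, -3.04 to 1.34 for *col-143*, -7.74 to 0.58 for *col-153* (mutant 1 at 0 counts), -4.84 to 1.75 for *col-160*, -4.76 to 1.11 for *col-179* and -3.18 to 1.94 for *col-184*. Of the 26 named collagens not called, 1 (*col-114*) was called by other tools. The replicate numbers were not treated as pairs: no source says that they mark shared material, and deviations of same-numbered libraries correlated at -0.13 over 9237 genes. With crossed pairing, 4 collagens were higher and 1 lower. The summed level in each library moved by less than the spread between replicates with other scalings or without the highest member, but without that member mutant library 2 went from 158.1 to 95.9 CPM, below both wild-type libraries. Keeping 1 member of each set of near-identical proteins was not run, as no protein sequences were used here.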
